A study of Mus musculus with 90 samples.

Results

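The genes described here make bile acids in the liver, conjugate them, carry them across the hepatocyte membrane or control their synthesis. Their members were the rows of 10 gene symbols in 4 deposited tables of estimated counts, and all 10 symbols were found among the 27654 genes of those tables. A hand-written list of 40 other genes of bile acid synthesis, conjugation, transport and control gives the wider pathway. Positions are those of the mouse build GRCm38 (mm10), as the annotation gives them.

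The enzymes of synthesis come first. *Cyp7a1* (ENSMUSG00000028240, chromosome 4, bases 6265612 to 6275633) encodes the rate-limiting enzyme of the classical route from cholesterol. *Cyp8b1* (ENSMUSG00000050445, chromosome 9, 121914356 to 121916305) encodes the sterol hydroxylase that directs synthesis towards cholic acid. *Cyp27a1* (ENSMUSG00000026170, chromosome 1, 74713574 to 74737892) encodes the mitochondrial hydroxylase that starts the alternative route, and *Cyp7b1* (ENSMUSG00000039519, chromosome 3, 18071950 to 18243338) encodes the oxysterol hydroxylase of that route. *Baat* (ENSMUSG00000039653, chromosome 4, 49489422 to 49506557) encodes the enzyme that joins bile acids to an amino acid.

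Regulators and transporters make up the rest. *Nr0b2* (ENSMUSG00000037583, chromosome 4, 133553376 to 133556536) encodes the nuclear receptor SHP, a repressor of bile acid synthesis genes. *Nr1h4* (ENSMUSG00000047638, chromosome 10, 89454234 to 89533585) encodes FXR, the nuclear receptor that senses bile acids. *Slc10a1* (ENSMUSG00000021135, chromosome 12, 80953183 to 80968705) encodes the main sodium-dependent importer of the hepatocyte for conjugated bile acids. *Abcb11* (ENSMUSG00000027048, chromosome 2, 69238282 to 69342616) encodes the bile salt export pump of the canalicular membrane, and *Slc51b* (ENSMUSG00000053862, chromosome 9, 65412714 to 65422955) encodes a subunit of a transporter that exports bile acids into blood.

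The study asked how the glucocorticoid receptor (GR) of hepatocytes takes part in the response of the mouse liver to caloric restriction over the day. Bulk RNA-seq of polyadenylated RNA gave 90 libraries in 28 groups, of which 22 held 3 livers and 6 held 4. A time series of 78 libraries covered WT and GR LKO mice on caloric restriction (36 libraries) and on control diet (42 libraries) at ZT0, ZT4, ZT8, ZT12, ZT16 and ZT20, where ZT0 was 6 a.m. A diet comparison (6 libraries) and a corticosterone experiment (6 libraries) used WT mice at ZT12.

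The mice were male C57BL/6J, and those of the diets were fed chow and were 20 to 21 weeks old when their livers were taken. For these mice single housing began at 12 weeks, with 7 days of recorded intake. Rations of the restricted mice were then lowered stepwise over 4 weeks to a reduction of 40% and kept there for 3 more weeks, with food supplied at ZT12. Control mice first fed ad libitum and were held on night-restricted feeding in the last 1 week. Both genotypes of the time series carried floxed GR alleles (GR fl/fl), and GR LKO mice also carried *Alb*-Cre, which is active in hepatocytes and leaves GR in the other cells of the liver. The libraries held no mice with Cre and without floxed alleles, so that an effect of Cre and of GR loss cannot be told apart. Mice of the other experiments are labelled WT with no allele given. In the diet comparison the control libraries bear the letters AL in their titles and night-restricted feeding as their treatment. In the corticosterone experiment mice of 12 weeks were first adapted to handling over 2 weeks. Under night-restricted feeding they were then given corticosterone (CORT) at 5 mg per kg at ZT11 on 7 days, and their controls are labelled with night-restricted feeding alone, while the methods of the study name a vehicle.

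Groups of the time series held 3 livers, apart from 4 per genotype at ZT8 and ZT12 and 4 WT livers at ZT16 and ZT20 on control diet. Total estimated counts per library ran from 14.2 M to 20.8 M (median 17.4 M) on caloric restriction and from 10.1 M to 17.1 M (median 13.4 M) on control diet in the time series. The diet comparison held 36.4 M to 39.5 M (median 37.4 M) and the corticosterone experiment 13.7 M to 16.1 M (median 14.4 M). Levels are given as CPM after scaling of library sizes by TMM. At these depths the median library held 9 estimated counts of *Slc51b* and 309 of *Nr0b2*, and at least 1862 of each other member. No transcript lengths were used, so levels were not compared between genes.

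Hepatocytes turn cholesterol into bile acids by a classical and an alternative route, conjugate them and pump them into bile. Most of the bile acids return from the intestine in portal blood and are taken up again by hepatocytes. Bile acids that bind FXR raise the transcription of *Nr0b2* and *Abcb11*, and SHP in turn holds back *Cyp7a1* and *Cyp8b1*.

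The genotype labels were checked first on *Nr3c1*, the gene of GR. The 40 WT libraries of the time series held 69.9 to 119 CPM (median 89.1) and the 38 GR LKO libraries 16.1 to 32.0 CPM (median 23.7). Every GR LKO library lay below the lowest WT library. The log2 fold changes at the 12 pairs of diet and time point lay between -2.06 and -1.70, with adjusted p from 9.57e-06 to 0.00309 (edgeR).

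The liver label was checked on markers of hepatocytes, of which 6 of 7 were in the tables. Their summed level ran from 66710 to 162689 CPM (median 98178) over the 90 libraries, with *Alb* the most abundant. Of the cholangiocyte markers, *Epcam* was at 0 in 88 libraries, and *Spp1* (mean 39.3 CPM), *Sox9* (5.09 CPM), *Krt19* (1.36 CPM) and *Krt7* (0.937 CPM) were at 0 in none. In whole liver, fewer cells of a type and less RNA per cell cannot be told apart.

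A library was set apart when its summed markers of a cell type other than hepatocytes were over 10 CPM, over 1.5 times those of each other liver of its group and over 1.5 times the median of all libraries, which 8 of the 90 met. WT replicate 3 at ZT12 on caloric restriction held 588 CPM of the 5 exocrine pancreas markers, against 0 and 0.139 CPM in the other livers of its group and a median of 0.369 CPM over all libraries. WT replicate 2 at ZT16 on control diet held 260.3 CPM of these pancreas markers, against 0.185, 0.909 and 0.294 CPM in its group. GR LKO replicate 1 at ZT20 on control diet held 151 CPM of the 6 cholangiocyte markers, against 63.4 and 39.8 CPM in its group, and 337 CPM of the 5 stellate cell markers, against 215 and 168 CPM. That GR LKO liver also held the lowest level of its group for *Cyp7a1*, *Cyp8b1*, *Cyp27a1*, *Cyp7b1*, *Baat*, *Nr1h4*, *Slc10a1* and *Abcb11* and the highest for *Nr0b2* and *Slc51b*. WT replicate 2 at ZT8 on caloric restriction had the highest sum of the 6 Kupffer and myeloid markers among all libraries (185 CPM, median 74.6), against 79.9 and 110.2 CPM in its group, and held 90.9 CPM of the cholangiocyte markers, against 45.8 and 44.2 CPM. GR LKO replicate 1 at ZT20 on caloric restriction had the highest sum of the stellate cell markers (436 CPM, median 192) and held 170.4 CPM of the Kupffer and myeloid markers, against 62.6 and 64.3 CPM in its group. For the Kupffer and myeloid markers WT replicate 1 at ZT4 (149 CPM, others 74.1 and 76.1) and GR LKO replicate 2 at ZT0 (155 CPM, others 101 and 74.5) on caloric restriction met the rule too, and for the 5 small intestine markers GR LKO replicate 3 at ZT12 on control diet (133 CPM, others 68.6 to 77.8). Calls of the fits per hour, of the means over time points and of the rhythms that changed without 1 of these libraries are given with and without it, and the part of other cells in the results was not tested.

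Across the time series the members differed in how their levels followed diet, genotype and hour. *Cyp7a1* levels in WT livers ran from 60.8 to 557 CPM (median 235, n = 18) on caloric restriction and from 42.9 to 327 CPM (median 180, n = 22) on control diet. In GR LKO livers they ran from 37.3 to 401 CPM (median 170, n = 18) and from 47.6 to 367 CPM (median 208, n = 20). The group mean on caloric restriction was highest at ZT16 in WT (456 CPM) and at ZT20 in GR LKO (326 CPM), in the dark hours after food was given. None of the 23 neighbouring pairs in the order of the 24 group means differed by more than the larger SD of the pair.

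*Cyp8b1* had the widest swing of the WT group means on caloric restriction, from 62.5 CPM at ZT8 to 629 CPM at ZT0, a ratio of 10.1. In GR LKO livers on that diet the means ran from 151 CPM at ZT4 to 530 CPM at ZT0, a ratio of 3.51. On control diet the ratio was 2.18 in WT livers (227 CPM at ZT12 to 494 CPM at ZT20) and 1.41 in GR LKO livers. Here too none of the 23 neighbouring pairs differed by more than the larger SD.

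*Cyp27a1* means lay closer together over the day, with ratios of highest to lowest mean of 1.59 (WT) and 1.67 (GR LKO) on caloric restriction, against 1.26 and 1.2 on control diet. The 18 GR LKO livers on caloric restriction held 245 to 446 CPM (median 379) and the 18 WT livers 398 to 742 CPM (median 550.5). The WT mean on caloric restriction was highest at ZT12 (685 CPM) and lowest at ZT16 (431 CPM).

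*Cyp7b1* was the member whose levels were divided by diet. WT livers held 34.1 to 107 CPM (median 57.2) on caloric restriction and 169 to 575 CPM (median 322) on control diet, and GR LKO livers 26.0 to 94.3 CPM (median 36.7) and 93.1 to 298 CPM (median 163). The 12 groups on control diet took the 12 highest places in the order of group means. The mice of each diet were sequenced as a separate set of libraries in the time series, so that diet and library set cannot be told apart there, and the difference in level between diets was tested on them only as an alternative at ZT12.

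*Baat* means kept within a ratio of 1.52 between the highest and the lowest hour in each combination of diet and genotype. The lowest mean was at ZT8 in all 4 combinations, at 242 (WT) and 214 CPM (GR LKO) under caloric restriction, against 223 and 218 CPM on control diet. The highest mean was at ZT16 or ZT20.

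Of the regulators, *Nr0b2* ran from 6.88 to 45.2 CPM (median 18.2) in WT livers on caloric restriction and from 8.30 to 48.1 CPM (median 24.6) on control diet. GR LKO livers held 5.71 to 45.6 CPM (median 17.3) and 4.92 to 41.4 CPM (median 19.2). *Nr1h4* means were lowest at ZT4 in WT livers of both diets (112 and 92.6 CPM) and in GR LKO livers on control diet (95.9 CPM), and at ZT0 in GR LKO livers on caloric restriction (96.3 CPM).

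Among the transporters, *Abcb11* had its highest mean at ZT4 in each combination of diet and genotype. The WT mean went from 976 CPM at ZT4 to 396 CPM at ZT12 on caloric restriction and from 1049 CPM at ZT4 to 378 CPM at ZT16 on control diet. *Slc10a1* means kept within a ratio of 1.37. *Slc51b* was near the detection limit, at 0.280 to 5.0 CPM (median 1.14) in WT livers on caloric restriction and 0.0652 to 0.968 CPM (median 0.276) on control diet, and 2 of the 90 libraries held no count of it. Groups on caloric restriction took 10 of the 12 highest places in its order of means, a difference between library sets that was not tested over the day.

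**Figure D1:**
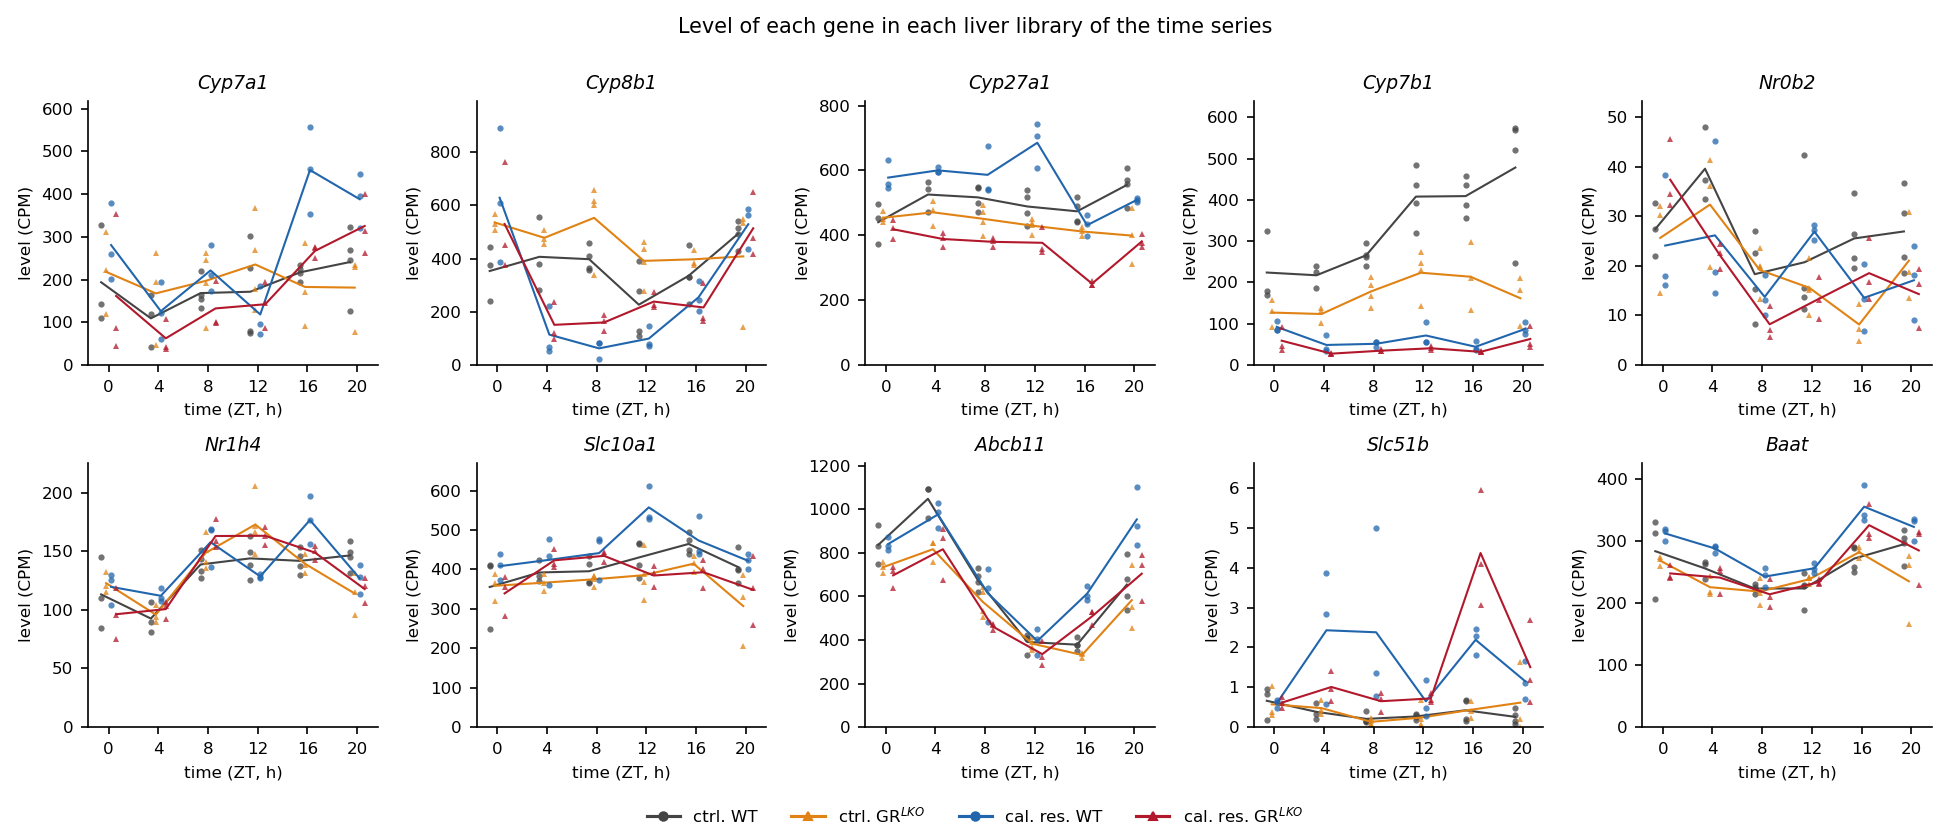
Level of each member (CPM, vertical axis from 0) in each liver of the time series against time of day (ZT, h); points are livers, lines join group means, circles are WT and triangles GR LKO. *Cyp7b1* is higher in every control group (means from 124 CPM) than in any group on caloric restriction (means up to 92.3 CPM), and the *Abcb11* mean is lower at ZT12 than at ZT4 in each of the 4 combinations.

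The diet comparison asked which genes differ between caloric restriction and control diet in WT livers at ZT12, with both diets among 6 libraries of 1 table. There, 3 enzymes of synthesis and FXR were lower and 1 enzyme was higher on caloric restriction. *Cyp7b1* had the largest change of the members, from 218 ± 52.8 CPM on control diet to 27.9 ± 1.74 CPM on caloric restriction (SD, n = 3 each). *Cyp8b1* and *Cyp7a1*, of the classical route, were lower, and *Cyp27a1*, of the alternative route, was higher.

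In this comparison edgeR called 5 of the 10 members (adjusted p under 0.05 over all genes tested), where 47.1% of the 13062 genes tested were called. The members' share is near that of all genes. Of the 5 called, 1 was higher and 4 were lower on caloric restriction, while over all genes 3073 were higher and 3082 lower. The median log2 fold change was 0.08 for the members and -1.8e-06 for all genes.

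*Cyp7a1* stood at 128, 189.7 and 111 CPM in the 3 control livers and at 60.3, 78.3 and 44.1 CPM in the 3 livers on caloric restriction. All livers on caloric restriction were below the lowest control liver, a log2 fold change of -1.23 (SE 0.26, adjusted p = 0.00717). *Cyp8b1* held 273, 324 and 169 CPM in control livers and 114, 35.1 and 29.5 CPM on caloric restriction. Replicate 1 on caloric restriction was nearest to the controls but below each of them, and the log2 fold change was -2.10 (SE 0.53, adjusted p = 0.0156). The call on *Cyp8b1* was lost without control replicate 2 (log2 fold change -1.90, adjusted p = 0.0515) and without replicate 2 on caloric restriction (-1.83, adjusted p = 0.0540). Of all genes tested 34.0% and 34.8% were called in these settings, beside 47.1% with all livers.

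The alternative route split. *Cyp27a1* was at 331, 324 and 341 CPM in control livers and 456, 452 and 509.6 CPM on caloric restriction, with a log2 fold change of 0.51 (SE 0.077, adjusted p = 0.00198). Its ranges did not overlap, and the livers on caloric restriction were the higher ones. *Cyp7b1* was at 242, 158 and 255 CPM in control livers and 29.8, 27.5 and 26.4 CPM on caloric restriction. The log2 fold change of *Cyp7b1* was -2.97 (SE 0.19, adjusted p = 0.000128), and each liver on caloric restriction lay below each control liver.

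For FXR, *Nr1h4* was at 131, 125 and 139 CPM in control livers and 95.1, 106 and 78.4 CPM on caloric restriction. The 3 livers on caloric restriction lay below the controls, a log2 fold change of -0.49 (SE 0.12, adjusted p = 0.0116). *Nr0b2*, the gene of SHP, was at 29.0, 27.5 and 38.0 CPM and 44.6, 29.0 and 42.6 CPM with overlap between the diets, and was not called, with a log2 fold change of 0.30 (SE 0.19, adjusted p = 0.230).

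The conjugating enzyme and the transporters were not called. *Baat* had a log2 fold change of 0.020 (SE 0.11, adjusted p = 0.894), with a 95% confidence interval of -0.19 to 0.23. *Slc10a1* had 0.14 (SE 0.094, adjusted p = 0.246) and *Abcb11* 0.40 (SE 0.21, adjusted p = 0.159), where replicate 3 on caloric restriction held 533 CPM of *Abcb11* and the other 5 livers 275 to 330.1 CPM. *Slc51b* was at 0.276, 0.340 and 0.263 CPM in control livers and 0.482, 0.493 and 0.410 CPM on caloric restriction. Its ranges did not overlap, and its log2 fold change was 0.65 (SE 0.28, adjusted p = 0.0904).

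When the diet effect at ZT12 was instead taken from the WT libraries of the time series, where diet coincides with the library set, edgeR called 3 members (*Cyp27a1*, *Cyp7b1* and *Slc10a1*) and 38.1% of all genes tested. The calls on *Cyp7a1* (-0.53, adjusted p = 0.486), *Cyp8b1* (-1.18, 0.0871) and *Nr1h4* (-0.15, 0.229) were lost there. In the diet comparison 47.1% of all genes tested were called. Of the 40 other pathway genes, 37 were tested there and 23 called, 13 higher and 10 lower on caloric restriction. The 3 with the largest changes at 5 CPM or more were *Slco1a1*, an uptake transporter, *Cyp39a1*, an oxysterol hydroxylase, and *Sult2a8*, a bile acid sulfotransferase. *Slco1a1* went from 530.1 ± 54.8 CPM to 21.4 ± 24.6 CPM, a log2 fold change of -4.63 (SE 0.83, adjusted p = 0.00386). *Cyp39a1* went from 1.53 ± 0.146 CPM to 14.1 ± 4.66 CPM (log2 fold change 3.20, SE 0.28, adjusted p = 0.000307) and *Sult2a8* from 789.6 ± 34.8 CPM to 95.8 ± 91.2 CPM (log2 fold change -3.04, SE 0.62, adjusted p = 0.00649; SD, n = 3 each).

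Markers of other liver cells were also called in these libraries, where 47.1% of the 13062 genes tested were called. Of 5 endothelial markers 4 were called higher on caloric restriction, and their sum was 105, 134 and 136 CPM in control livers and 177, 177 and 204 CPM on caloric restriction, with *Clec4g* the most abundant. Of 5 tested cholangiocyte markers 2 were called higher, of 5 stellate cell markers 2 were higher and 1 lower, and of 2 tested small intestine markers 1 was lower. None of 6 Kupffer and myeloid cell markers and of 1 tested exocrine pancreas marker was called (edgeR). Hepatocyte markers summed to 85527, 85929 and 89902 CPM in control livers and 149435, 152210 and 155037 CPM on caloric restriction, mostly *Alb*, and 1 of 6 was called higher. The part of these cells in the diet effect was not tested.

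The corticosterone experiment asked what the hormone does to WT livers on control diet at ZT12. No member was called, while known glucocorticoid-induced genes rose. *Fkbp5* rose by 2.63 on the log2 scale (SE 0.35, adjusted p = 0.00797), *Per1* by 2.04 (SE 0.19, adjusted p = 0.00247) and *Tsc22d3* by 1.48 (SE 0.12, adjusted p = 0.00141). Every CORT liver lay above every control liver for these 3 genes.

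Among the 9 members tested, edgeR called 0, where 8.11% of the 11523 genes tested were called, and DESeq2 also called 0. At an unadjusted p under 0.05 there were 2, *Cyp27a1* and *Baat*, and 26.0% of all genes tested. The median log2 fold change was -0.11 for the members and -0.0067 for all genes.

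*Cyp8b1* was at 181, 262 and 338 CPM in control livers and 68.5, 254 and 55.3 CPM in CORT livers, where replicates 1 and 3 were below the controls and replicate 2 was within their range. Its log2 fold change was -1.05 (SE 0.57, adjusted p = 0.299). Without CORT replicate 2 the value was -2.08 and was called (adjusted p = 0.0106), and *Baat* was then called too (-0.36, adjusted p = 0.0483), so that 2 members were called. Of all genes tested 8.59% were called without that liver. CORT replicate 2 held more cholangiocyte markers (47.0 CPM) than the other CORT livers (24.4 and 26.4 CPM), near the median of all libraries (43.6 CPM), and more Kupffer and myeloid markers (92.8 CPM, others 61.2 and 74.8). It also had the lowest *Cyp7b1* level (324, 143 and 316 CPM in CORT livers, 269.8, 269 and 306 CPM in controls) and the highest *Abcb11* level (447, 660.2 and 374 CPM and 386, 371 and 566 CPM).

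*Cyp7a1* was at 94.8, 178 and 165 CPM in control and 144, 145 and 53.1 CPM in CORT livers, with overlap apart from CORT replicate 3, which was below the controls. The 95% confidence interval of its log2 fold change was -1.14 to 0.42. *Cyp27a1* was at 417, 405 and 463 CPM and 558, 558 and 458 CPM, a log2 fold change of 0.29 (SE 0.11, adjusted p = 0.160), and CORT replicate 3 fell within the range of the controls. *Baat* was at 224, 232 and 242 CPM in control and 187, 220.1 and 177 CPM in CORT livers, without overlap, a log2 fold change of -0.26 (SE 0.11, adjusted p = 0.180).

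*Nr0b2* had a log2 fold change of 0.55 (SE 0.30, adjusted p = 0.292) and *Nr1h4* of -0.043 (SE 0.15, adjusted p = 0.898). For the transporters the values were -0.16 (SE 0.11, adjusted p = 0.395) for *Slc10a1* and 0.16 (SE 0.25, adjusted p = 0.730) for *Abcb11*. *Slc51b* was below the filter on low counts and was not tested, at 0.143, 0.0622 and 0.137 CPM in control livers and 0.454, 0.995 and 0.340 CPM in CORT livers. Each CORT liver held more *Slc51b* than each control liver.

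Of the 40 other pathway genes 36 were tested with CORT and 6 called, 5 higher and 1 lower, beside 8.11% of all genes tested. *Abcg8* and *Abcg5*, which together form a sterol exporter, went from 37.8 ± 12.5 CPM to 133 ± 31.7 CPM and from 38.3 ± 14.2 CPM to 94.9 ± 3.94 CPM (SD, n = 3 each). Their log2 fold changes were 1.82 (SE 0.26, adjusted p = 0.0103) and 1.31 (SE 0.24, adjusted p = 0.0216). *Slc10a2*, a bile acid importer, had a log2 fold change of 0.97 (SE 0.12, adjusted p = 0.00530). Of the markers tested, 1 of 4 for cholangiocytes, 1 of 5 for endothelial and 1 of 5 for stellate cells were called lower with CORT, and 1 of 6 for Kupffer and myeloid cells and 1 of 2 for small intestine higher. The small intestine marker was *Slc10a2*, which is on that list too. None of 6 hepatocyte markers was called (edgeR), and no exocrine pancreas marker could be tested.

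**Figure D2:**
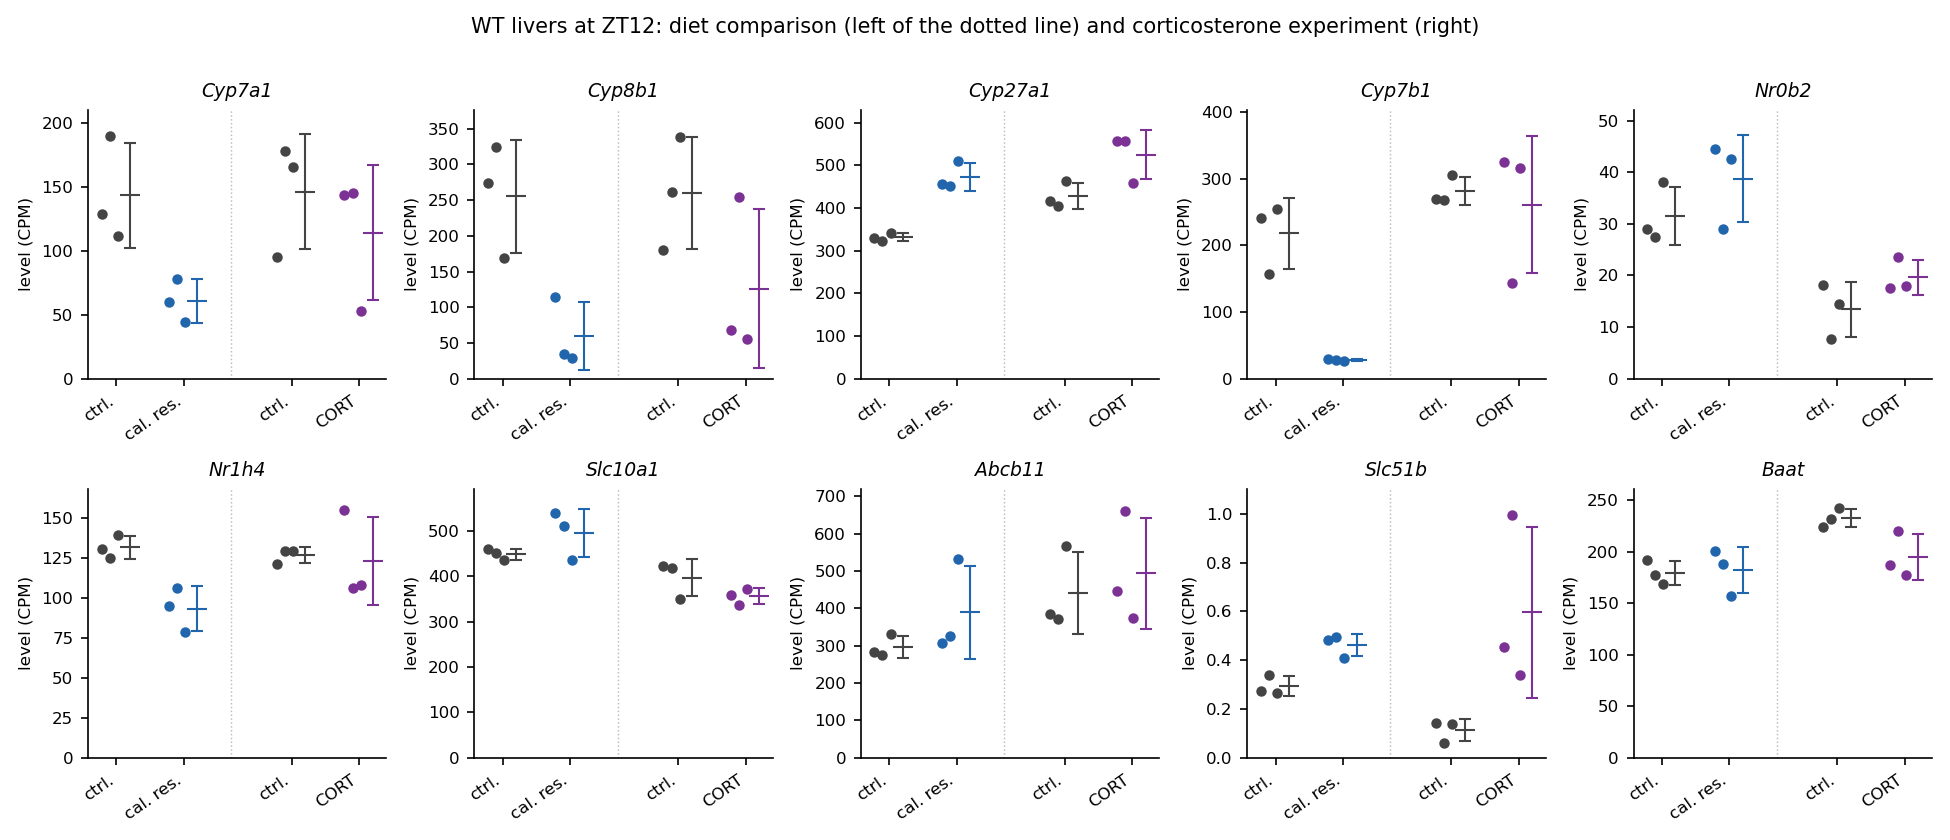
Level of each member (CPM, vertical axis from 0) in WT livers at ZT12; points are livers, and the bar beside them gives the mean and SD of 3 livers. Left of the dotted line is the diet comparison, where *Cyp7b1* went from a mean of 218 to 27.9 CPM, and right of it the corticosterone experiment, where no member was called.

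Loss of GR from hepatocytes was measured on caloric restriction at each of the 6 time points. *Cyp27a1* was lower in every GR LKO liver than in every WT liver at each hour, and called at ZT4, ZT8, ZT12 and ZT16. At ZT12, when food is given, 5 members were called in both directions: *Cyp8b1* and *Nr1h4* were higher, and *Cyp27a1*, *Nr0b2* and *Slc10a1* were lower in GR LKO livers. At ZT16 *Cyp7a1* was lower.

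Members called by edgeR numbered 0 of 10 at ZT0, where 0.502% of all genes tested were called. At ZT4 the number was 1 (0.690% of all genes), at ZT8 1 (2.55%), at ZT12 5 (15.3%), at ZT16 2 (4.54%) and at ZT20 0 (1.47%). Over the 6 time points 9 of 60 pairs of member and time point were called. At an unadjusted p under 0.05 the members numbered 3, 3, 7, 6, 7 and 2 in the order of the hours, and all genes 13.2%, 14.6%, 17.3%, 31.0%, 19.2% and 19.4%. DESeq2 called 15 of the 60 pairs, among them *Cyp27a1*, *Abcb11* and *Baat* at ZT0 and *Cyp27a1* at ZT20. Over all genes it also called more at each hour, 3.06%, 3.43%, 5.27%, 17.5%, 7.05% and 5.35% of those with an adjusted p. The members' median log2 fold change lay between -0.48 (ZT8) and -0.19 (ZT12), and that of all genes between -0.0041 and 0.0042.

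*Cyp7a1* was at 459, 354 and 557 CPM in WT and 252, 276 and 273 CPM in GR LKO livers at ZT16. The GR LKO livers lay close together and below each WT liver, a log2 fold change of -0.76 (SE 0.16, adjusted p = 0.0363). At ZT0 the WT livers held 202, 379.9 and 260.4 CPM, against 354, 85.6 and 45.3 CPM in GR LKO livers, so that GR LKO replicate 1 was within the WT range and the others below it. The log2 fold change at the other hours ran from -1.01 at ZT4 to 0.26 at ZT12, and the ranges overlapped at each of them.

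The call on *Cyp7a1* at ZT16 was lost without WT replicate 1 (adjusted p = 0.117) or 3 (0.0753) and without GR LKO replicate 1 (0.111), 2 (0.0974) or 3 (0.117), with log2 fold changes from -0.80 to -0.60. The share of all genes called fell too, from 4.54% with all livers to between 1.93% and 2.86% in these settings. In 1 fit of all libraries of the diet it was not called either (-0.77, adjusted p = 0.450). On control diet *Cyp7a1* was not called at ZT16 (-0.25, SE 0.31, adjusted p = 0.740), and the interaction of genotype and diet was -0.52 (SE 0.40, adjusted p = 0.70).

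*Cyp8b1* was at 71.0, 146 and 80.4 CPM in WT and 219, 273 and 224 CPM in GR LKO livers at ZT12. Each GR LKO liver exceeded each WT liver, a log2 fold change of 1.26 (SE 0.27, adjusted p = 0.0207). At ZT8 the WT livers held 82.0, 23.6 and 81.8 CPM, against 129, 188 and 164 CPM in GR LKO livers, again with no overlap, but the log2 fold change of 1.36 (SE 0.42, adjusted p = 0.160) was not called. At ZT20 the genotypes overlapped at 585, 437 and 566 CPM and 478, 416 and 649 CPM. At ZT0, ZT4 and ZT16 the log2 fold changes were -0.23, 0.40 and -0.23.

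For *Cyp8b1* at ZT12 the call was lost without WT replicate 3 (adjusted p = 0.0725), the liver with pancreas markers, and without GR LKO replicate 1 (adjusted p = 0.0502), 2 (0.0672) or 3 (0.0606), with log2 fold changes from 1.13 to 1.31. At ZT8 it was gained without WT replicate 2, the liver with Kupffer and cholangiocyte markers, whose level was 23.6 CPM (0.97, adjusted p = 0.0338). In 1 edgeR fit of all libraries of the diet *Cyp8b1* was not called at ZT12 (1.27, adjusted p = 0.0517), but was without WT replicate 2 at ZT8 (1.26, 0.0340) or WT replicate 1 at ZT4 (1.26, 0.0492). The interaction with diet at ZT12 was 0.48 (SE 0.55, adjusted p = 0.761).

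*Cyp27a1* was at 595, 609.8 and 596 CPM in WT and 365, 408 and 392 CPM in GR LKO livers at ZT4. At ZT8 the WT livers held 542, 541 and 676 CPM, against 383, 392 and 364 CPM in GR LKO livers. At each of the 6 time points every GR LKO liver was below every WT liver. At ZT12 the levels were 742, 607 and 707 CPM in WT and 347, 357 and 427 CPM in GR LKO livers, and at ZT16 462, 433 and 398 CPM and 247, 260.0 and 245 CPM. The log2 fold changes were -0.63 (SE 0.076, adjusted p = 0.0260) at ZT4, -0.62 (SE 0.11, adjusted p = 0.0337) at ZT8, -0.87 (SE 0.12, adjusted p = 0.00458) at ZT12 and -0.77 (SE 0.089, adjusted p = 0.00417) at ZT16. At ZT0 and ZT20 they were -0.46 (SE 0.088, adjusted p = 0.0887) and -0.41 (SE 0.078, adjusted p = 0.0612), short of the threshold.

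The calls on *Cyp27a1* at ZT12 and ZT16 were kept without any 1 library. At ZT4 the call was lost without WT replicate 1 (adjusted p = 0.0652), a liver with Kupffer and myeloid markers, or 2 (0.12) and without GR LKO replicate 1 (0.0822), 2 (0.116) or 3 (0.0940), with log2 fold changes from -0.66 to -0.59. At ZT8 it was lost without WT replicate 3 (0.0639) and without GR LKO replicate 1 (0.142), 2 (0.119) or 3 (0.170), with log2 fold changes from -0.64 to -0.51. In these settings 0.106% to 0.302% of all genes were called at ZT4, beside 0.690% with all livers. At ZT8 the share was 0.458% to 1.39%, beside 2.55%. In 1 fit of all libraries of the diet *Cyp27a1* was called at each of the 6 hours, with -0.46 at ZT0 (adjusted p = 0.00536) and -0.42 at ZT20 (0.00507), and these calls were kept without any 1 of the libraries set apart. On control diet *Cyp27a1* was not called at these hours, and the interactions were -0.48 (SE 0.12, adjusted p = 0.549) at ZT4 and -0.42 (SE 0.13, adjusted p = 0.361) at ZT8.

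*Cyp7b1* was not called at any single time point on caloric restriction by edgeR, and the number at an unadjusted p under 0.05 was 4 of 6. Its mean was lower in GR LKO livers at each hour, and the ranges did not overlap at 4 of the 6. At ZT8 the WT livers held 56.0, 43.2 and 54.9 CPM, against 33.0, 33.1 and 37.9 CPM in GR LKO livers, a log2 fold change of -0.56 (SE 0.12, adjusted p = 0.0580). At ZT12 they held 55.6, 104 and 54.8 CPM and 40.1, 36.1 and 45.3 CPM, a log2 fold change of -0.82 (SE 0.25, adjusted p = 0.0684). DESeq2 called *Cyp7b1* at ZT8 and ZT12. With edgeR it was called at ZT8 without WT replicate 2 (-0.67, adjusted p = 0.0215), the liver with Kupffer and cholangiocyte markers, and at ZT0 without GR LKO replicate 1 (-1.12, adjusted p = 0.0394), the liver that held 92.3 CPM where the others held 47.1 and 37.3 CPM.

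*Baat* was lower on average in GR LKO livers at all 6 time points on caloric restriction, with log2 fold changes from -0.32 at ZT0 to -0.12 at ZT16. Its ranges did not overlap at ZT0, ZT4 and ZT12. At ZT0 the WT livers held 300.4, 315 and 319 CPM, against 261, 242 and 239.9 CPM in GR LKO livers (adjusted p = 0.0967, edgeR).

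Of the regulators, *Nr0b2* was at 27.2, 28.3 and 25.3 CPM in WT and 9.35, 13.1 and 17.8 CPM in GR LKO livers at ZT12. The GR LKO livers were all below the WT livers, a log2 fold change of -1.01 (SE 0.21, adjusted p = 0.0202). At the other hours the ranges overlapped and the log2 fold change ran from -0.74 at ZT8 to 0.65 at ZT0. The call at ZT12 was lost without WT replicate 1 (adjusted p = 0.0533), 2 (0.0619) or 3 (0.0507) and without GR LKO replicate 2 (0.0694), with log2 fold changes from -1.06 to -0.98. Nor was it made in 1 fit of all libraries of the diet (-1.01, adjusted p = 0.103). The interaction with diet was -0.60 (SE 0.56, adjusted p = 0.688).

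*Nr1h4* was at 130.3, 127 and 128 CPM in WT and 171, 156 and 163 CPM in GR LKO livers at ZT12. Here the GR LKO livers were the higher ones, a log2 fold change of 0.34 (SE 0.076, adjusted p = 0.0251). At ZT16 the order was the other way, with 176, 156 and 198 CPM in WT and 142, 154 and 149.99 CPM in GR LKO livers, and the log2 fold change of -0.24 (SE 0.10, adjusted p = 0.258) was not called. At ZT4 the GR LKO livers were again the lower ones (-0.15, SE 0.086, adjusted p = 0.472). The call at ZT12 was lost without WT replicate 1 (adjusted p = 0.0563), 2 (0.0787) or 3 (0.0914) and without GR LKO replicate 1 (0.0769) or 3 (0.0896), with log2 fold changes from 0.30 to 0.35. The interaction with diet at ZT12 was 0.087 (SE 0.15, adjusted p = 0.854).

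*Slc10a1* was at 529, 532 and 611 CPM in WT and 389.8, 409 and 355 CPM in GR LKO livers at ZT12. The WT mean at this hour was the highest of the diet, and the GR LKO livers lay below each WT liver, a log2 fold change of -0.54 (SE 0.10, adjusted p = 0.0113). This call was kept without any 1 library. On control diet at ZT12 the log2 fold change was -0.15 (SE 0.12, adjusted p = 0.699), and the interaction was -0.37 (SE 0.17, adjusted p = 0.340).

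*Abcb11* was lower in GR LKO livers on average at each of the 6 hours on caloric restriction, without overlap at 5 of them, and was called by edgeR at 0, with 4 at an unadjusted p under 0.05 and 1 by DESeq2 (ZT0). At ZT0 the WT livers held 874, 833 and 815 CPM, against 638, 735 and 718 CPM in GR LKO livers, a log2 fold change of -0.26 (SE 0.074, adjusted p = 0.193). At ZT20 they held 924, 1102 and 835 CPM and 579, 790.0 and 744 CPM, a log2 fold change of -0.43 (SE 0.15, adjusted p = 0.187). Without WT replicate 2 at ZT8, the liver with Kupffer and cholangiocyte markers, which held 483 CPM, *Abcb11* was called there (-0.55, adjusted p = 0.0301).

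*Slc51b* was at 1.81, 2.30 and 2.47 CPM in WT and 5.95, 3.07 and 4.09 CPM in GR LKO livers at ZT16. The GR LKO livers were the higher ones at this hour, with a log2 fold change of 1.01 (SE 0.29, adjusted p = 0.107), not called. At ZT8 WT replicate 2, the liver with Kupffer and cholangiocyte markers, alone reached 5.0 CPM and the other livers of both genotypes stayed between 0.368 and 1.35 CPM. At ZT4 the WT livers held 3.86, 2.84 and 0.587 CPM, against 0.949, 0.656 and 1.42 CPM in GR LKO livers, with overlap.

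Of all genes tested on caloric restriction, 0.502%, 0.690%, 2.55%, 15.3%, 4.54% and 1.47% were called at the hours from ZT0 to ZT20. Among other pathway genes, 36 were tested at each hour and 0, 1, 2, 8, 4 and 2 were called in the same order. At ZT12 4 were higher and 4 lower in GR LKO livers. *Slco1a1* went from 107 ± 138 CPM to 6.51 ± 4.28 CPM at ZT12 (log2 fold change -4.04, SE 1.05, adjusted p = 0.0418), *Abcc4*, a basolateral exporter, from 3.71 ± 1.21 CPM to 14.7 ± 2.62 CPM (1.97, SE 0.25, adjusted p = 0.00347) and *Cyp46a1*, a cholesterol hydroxylase, from 3.50 ± 0.663 CPM to 13.3 ± 2.48 CPM (1.92, SE 0.20, adjusted p = 0.00154; SD, n = 3 each). *Abcc4* and *Cyp46a1* were also the called genes at ZT8, with log2 fold changes of 1.52 (SE 0.16, adjusted p = 0.00774) and 1.81 (SE 0.33, adjusted p = 0.0374). *Abcc3*, a further basolateral exporter, was higher in GR LKO livers at ZT4 (0.50, SE 0.079, adjusted p = 0.0486), ZT16 (1.07, SE 0.12, adjusted p = 0.00340) and ZT20 (0.74, SE 0.079, adjusted p = 0.0123). *Cyp2c70*, which makes muricholic acids, was lower at ZT16 (-1.14, SE 0.18, adjusted p = 0.0165) and ZT20 (-0.83, SE 0.15, adjusted p = 0.0494), and *Slc10a2* was higher at ZT16 (1.33, SE 0.28, adjusted p = 0.0393).

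Marker sums differed between the genotypes at ZT12 on caloric restriction. Hepatocyte markers summed to 159014, 157735 and 162689 CPM in WT and 121237, 129541 and 111997 CPM in GR LKO livers, mostly *Alb*, and 2 of 6 were called lower. Kupffer and myeloid markers summed to 28.3, 45.9 and 34.2 CPM in WT and 76.0, 64.0 and 85.5 CPM in GR LKO livers, with *Clec4f* the most abundant, and 2 of 6 were called higher. Of 5 endothelial markers 1 was called higher and of 3 tested cholangiocyte markers 1 lower, though the sum of all 6 was above WT in every GR LKO liver (31.4 to 32.4 against 26.4 to 31.1 CPM), while 0 of 5 stellate cell and 0 of 2 small intestine markers were called (edgeR). Without WT replicate 3, the liver with pancreas markers, 6 of the 9 called pairs remained, the calls on *Cyp8b1*, *Nr0b2* and *Nr1h4* at ZT12 being lost. Without WT replicate 2 at ZT8, the liver with Kupffer and cholangiocyte markers, 12 pairs were called, the 3 added being *Cyp8b1*, *Cyp7b1* and *Abcb11* at ZT8, and without GR LKO replicate 1 at ZT20, the liver with stellate cell markers, or GR LKO replicate 2 at ZT0, the 9 remained. Without WT replicate 1 at ZT4 8 remained, *Cyp27a1* at ZT4 being lost. At ZT16 2 of 2 tested small intestine markers were called higher and 1 hepatocyte marker lower, and at ZT8 1 hepatocyte marker was lower. Of all genes tested 15.3% were called at ZT12, 4.54% at ZT16 and 2.55% at ZT8. *Slc10a2*, called among the pathway genes at ZT16, is on the small intestine list too. The summed endothelial markers were higher in every GR LKO liver than in every WT liver at ZT4 (180 to 208 against 134 to 160 CPM), ZT8 (171 to 189 against 138 to 149 CPM) and ZT12 (182 to 205 against 140 to 165 CPM). The hepatocyte sum was lower in every GR LKO liver at 4 hours (ZT0, ZT8, ZT12 and ZT16) and the small intestine sum higher at 4 (ZT4, ZT8, ZT16 and ZT20). The stellate cell sum was lower in every GR LKO liver at ZT16 (163 to 192 against 193 to 283 CPM). The part of other cells in these results was not tested.

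Control diet gave the same genotype contrast without caloric restriction. *Cyp7b1* was lower in every GR LKO liver than in every WT liver of its hour at all 6 time points, yet edgeR called it at none of them when each hour was fitted alone. *Nr0b2* at ZT16 was the 1 call of these fits, and *Cyp27a1* was called at no hour. In 1 edgeR fit of all libraries of the diet *Cyp7b1* was called at ZT12 (-0.87, adjusted p = 0.0434) and ZT20 (-1.57, 0.00122), *Cyp27a1* at ZT20 (-0.47, 0.00882) and *Nr0b2* at ZT16 (-1.63, 0.0264). Of all genes tested the fit called 4.18% at ZT12, 3.65% at ZT16 and 3.02% at ZT20. That fit without GR LKO replicate 1 at ZT20, the liver with cholangiocyte markers, no longer called *Cyp27a1* at ZT20 (-0.33, 0.126) and kept *Cyp7b1* there (-1.30, 0.0231). Nor did it call *Cyp7b1* at ZT12 (-0.71, 0.179) without GR LKO replicate 3 at ZT12, the liver with small intestine markers. Without either of them *Cyp7b1* was called at ZT16 (-0.94 each, 0.0350 and 0.0421).

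By edgeR 0 members were called on control diet at ZT0, where 0.536% of all genes tested were called. The number was 0 at ZT4 (0.195% of all genes), 0 at ZT8 (1.43%), 0 at ZT12 (2.08%), 1 at ZT16 (1.98%) and 0 at ZT20 (0.420%). At an unadjusted p under 0.05 the members numbered 2, 2, 4, 2, 4 and 3, and all genes 15.3%, 9.75%, 11.2%, 12.6%, 16.6% and 11.3%. DESeq2 called 0 at ZT0, 2 at ZT4, 1 at ZT8, 1 at ZT12, 2 at ZT16 and 1 at ZT20, of which *Cyp7b1* was 1 at each of the last 5 hours, and 3.03%, 1.53%, 2.77%, 4.31%, 5.08% and 2.13% of all genes with an adjusted p. The members' median log2 fold change ran from -0.35 (ZT20) to -0.026 (ZT12), beside -0.011 to 0.0056 for all genes.

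*Cyp7b1* was at 239.8, 226 and 187 CPM in WT and 138, 131 and 102 CPM in GR LKO livers at ZT4. At ZT8 it was at 297, 240.2, 261 and 266 CPM and 168, 212, 194 and 139 CPM, and at ZT12 at 319, 392, 486 and 435 CPM and 273, 230.4, 144 and 247 CPM. The GR LKO livers were the lower ones throughout. At ZT16 it was at 356, 437, 457 and 388 CPM in WT and 133, 298 and 211 CPM in GR LKO livers, and at ZT20 at 522, 575, 247 and 570.2 CPM and 94.3, 181 and 210.1 CPM. The log2 fold changes were -0.82 (SE 0.29, adjusted p = 0.250) at ZT0, -0.81 (SE 0.14, adjusted p = 0.117) at ZT4, -0.57 (SE 0.12, adjusted p = 0.0585) at ZT8, -0.86 (SE 0.20, adjusted p = 0.0647) at ZT12, -0.94 (SE 0.24, adjusted p = 0.101) at ZT16 and -1.56 (SE 0.36, adjusted p = 0.160) at ZT20. Without GR LKO replicate 2 the gene was called at ZT8 (-0.67, adjusted p = 0.0415). The value at ZT20 without GR LKO replicate 1, the liver with cholangiocyte markers, was -1.30 (0.207).

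*Nr0b2* was at 34.7, 19.5, 26.5 and 21.5 CPM in WT and 12.3, 7.33 and 4.92 CPM in GR LKO livers at ZT16. No GR LKO liver reached the lowest WT liver, a log2 fold change of -1.63 (SE 0.32, adjusted p = 0.0456). The call was lost without WT replicate 1 (-1.46, adjusted p = 0.0800), 2 (-1.74, 0.0749), which is the liver with pancreas markers, 3 (-1.62, 0.0748) or 4 (-1.71, 0.0815) and without GR LKO replicate 2 (-1.55, 0.156) or 3 (-1.38, 0.107). The share of all genes called was 0.701% to 1.58% in these settings, beside 1.98% with all livers. On caloric restriction at ZT16 the log2 fold change was 0.45 (SE 0.39, adjusted p = 0.601), and the interaction was 2.09 (SE 0.56, adjusted p = 0.196), called by DESeq2 (adjusted p = 0.0136) and not by edgeR.

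The classical route showed values towards higher *Cyp8b1* in GR LKO livers on control diet, with log2 fold changes above 0 at 5 of 6 hours. At ZT0 the WT livers held 444, 377 and 239 CPM, against 531, 509.5 and 568 CPM in GR LKO livers, with no overlap and 0.60 (SE 0.21, adjusted p = 0.246). At ZT8 the WT livers held 411, 358, 365 and 457 CPM, against 601, 617, 658 and 338 CPM in GR LKO livers, where GR LKO replicate 4 was below the WT range. Without that liver *Cyp8b1* was called at ZT8 (0.65, adjusted p = 0.0180). *Cyp7a1* ranges overlapped at every hour, with log2 fold changes from -0.41 at ZT20 (-0.055 without GR LKO replicate 1, the liver with cholangiocyte markers) to 0.62 at ZT4.

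*Cyp27a1* had log2 fold changes from -0.47 at ZT20 to 0.040 at ZT0 on control diet, with the ranges apart at ZT16 and ZT20. *Baat* ran from -0.32 to 0.10 and its ranges overlapped at each hour. *Nr1h4* ran from -0.35 at ZT20 to 0.27 at ZT12. At ZT20 its 3 GR LKO livers (95.3, 131 and 115 CPM) were below its 4 WT livers (132, 159, 149.8 and 145 CPM). The values at ZT20 without GR LKO replicate 1, the liver with cholangiocyte markers, were -0.33 for *Cyp27a1* (adjusted p = 0.356), -0.13 for *Baat* (0.63) and -0.25 for *Nr1h4* (0.394).

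For the transporters on control diet, *Abcb11* was at 1094, 960.4 and 1091 CPM in WT and 845, 759 and 847 CPM in GR LKO livers at ZT4, apart from each other, with a log2 fold change of -0.36 (SE 0.087, adjusted p = 0.241). DESeq2 called *Abcb11* at this hour. *Slc10a1* had log2 fold changes from -0.39 at ZT20 (-0.18 without GR LKO replicate 1, the liver with cholangiocyte markers) to 0.0093 at ZT0. *Slc51b* passed the filter on low counts at 1 of the 6 hours (ZT0, -0.22, SE 0.72, adjusted p = 0.917), and its ranges overlapped at all 6.

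Of all genes tested on control diet, 0.536%, 0.195%, 1.43%, 2.08%, 1.98% and 0.420% were called at the hours from ZT0 to ZT20. Of the other pathway genes tested (36 at ZT0 and ZT4 and 35 at the later hours), 1 was called at each of ZT8, ZT12 and ZT16 and 0 at ZT0, ZT4 and ZT20. They were *Abcc3* at ZT8 (0.38, SE 0.066, adjusted p = 0.0265), *Hnf4a*, a hepatocyte transcription factor, at ZT12 (-0.48, SE 0.094, adjusted p = 0.0370) and *Slc10a2* at ZT16 (1.49, SE 0.20, adjusted p = 0.0125). Of the markers, 1 hepatocyte marker was called lower at ZT12 and 1 small intestine marker higher at ZT16, where *Slc10a2* is on that list too. The hepatocyte sum was lower in every GR LKO liver than in every WT liver at ZT4 (71156 to 75895 against 93553 to 94199 CPM) and ZT16 (71304 to 83442 against 87213 to 95628 CPM). The small intestine sum was higher in every GR LKO liver at 3 hours (ZT8, ZT16 and ZT20), the endothelial sum lower at ZT16 (73.6 to 89.7 against 92.9 to 97.9 CPM) and the cholangiocyte sum lower at ZT4 (28.1 to 36.1 against 39.1 to 45.8 CPM). Without GR LKO replicate 1 at ZT20, the liver with cholangiocyte markers, 1 pair of member and time point was called, as with it and without GR LKO replicate 3 at ZT12, the liver with small intestine markers, and without WT replicate 2 at ZT16, the liver with pancreas markers, 0 pairs were. With any 1 of the 8 libraries set apart above left out, edgeR called 0 pairs for the interaction described next.

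**Figure D3:**
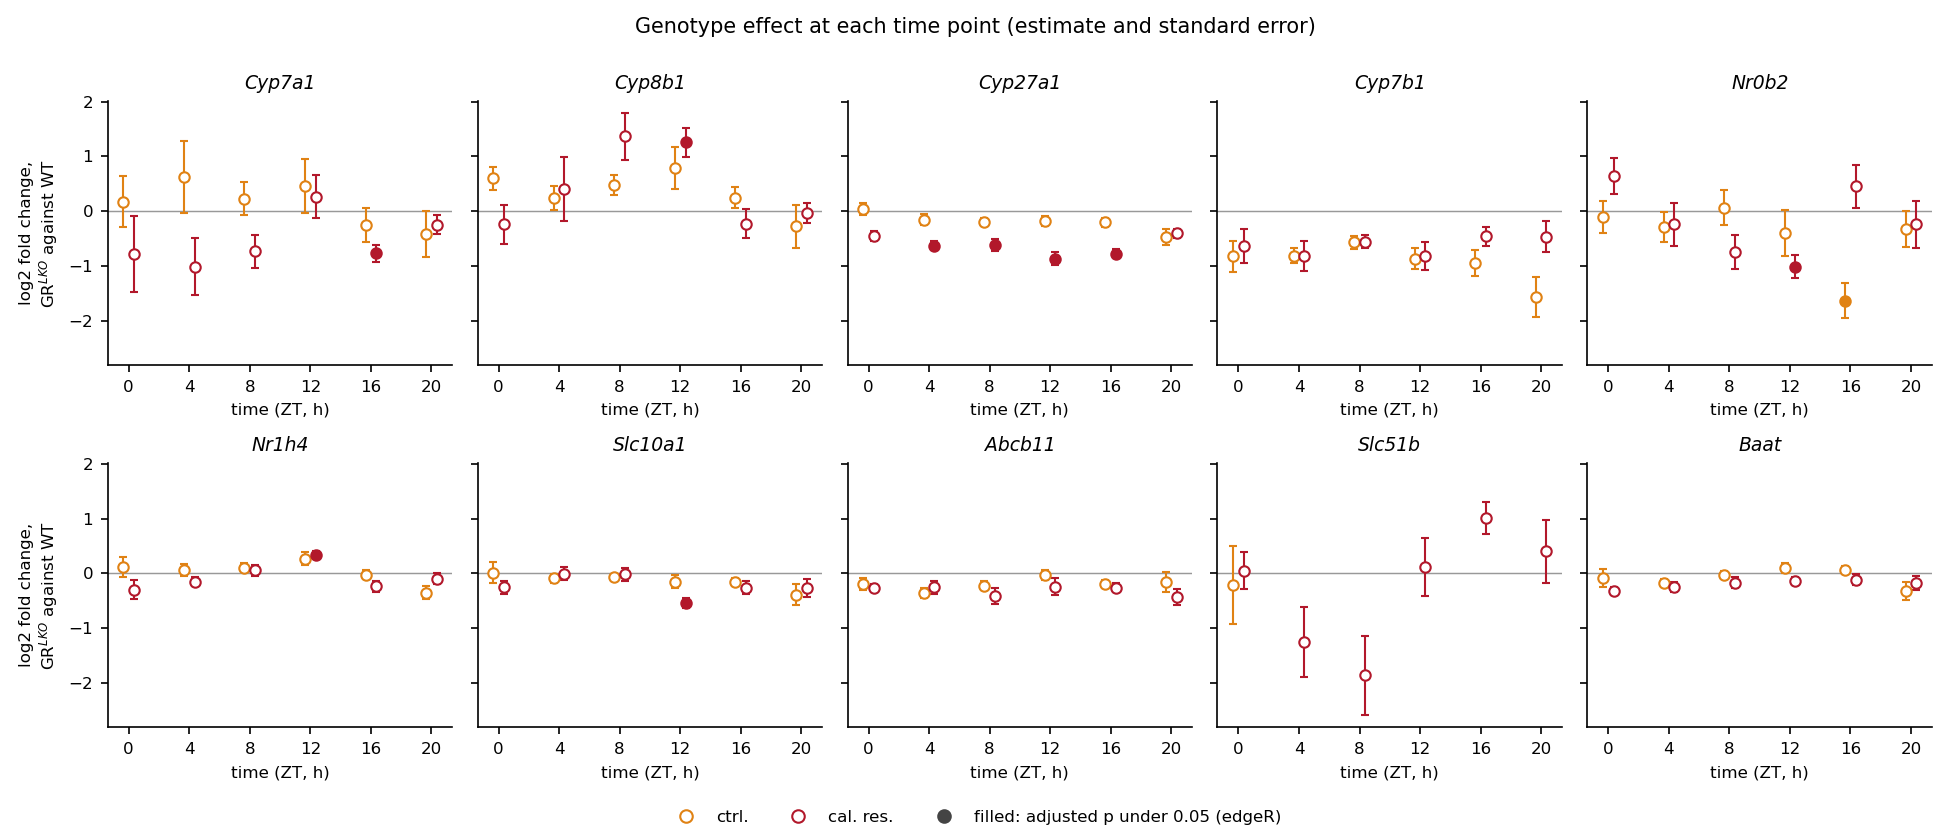
Log2 fold change of GR LKO against WT livers for each member (vertical axis) at each time point (ZT, h) on control diet and caloric restriction, with the standard error; filled points have an adjusted p under 0.05 (edgeR). *Cyp27a1* on caloric restriction lies below 0 at all 6 time points and is filled at 4, and *Cyp7b1* lies below 0 at each hour on both diets without a filled point.

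Whether the genotype effect differed between the diets was tested as an interaction at each hour. The nearest to a call was *Cyp27a1*, with interaction values below 0 from ZT0 to ZT16. Its log2 fold change of GR LKO against WT was thus lower in restricted mice than in controls at these hours. In control mice at ZT0 its GR LKO mean lay slightly above the WT mean (454 and 440 CPM). No member was called by edgeR.

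The counts were 0 of 10 members at ZT0 (0% of all genes tested), 0 at ZT4 (0%), 0 at ZT8 (0.0810%), 0 at ZT12 (1.01%), 0 at ZT16 (0.234%) and 0 at ZT20 (0%). At an unadjusted p under 0.05 the members numbered 1, 1, 1, 2, 2 and 0, and all genes 10.2%, 6.03%, 8.45%, 14.2%, 10.5% and 6.97%. DESeq2 called 1, 1, 0, 1, 2 and 0 members and 5.57%, 0.273%, 1.12%, 4.09%, 1.45% and 0.335% of all genes with an adjusted p, of which there were 3017 at ZT0 and 11217 to 14329 at the other hours. The interaction of *Cyp27a1* was -0.49 (SE 0.15, adjusted p = 0.382) at ZT0, -0.67 (SE 0.15, adjusted p = 0.0515) at ZT12 and -0.57 (SE 0.11, adjusted p = 0.0750) at ZT16. *Cyp27a1* was called at ZT12 without WT replicate 2 on caloric restriction (-0.76, adjusted p = 0.0474), GR LKO replicate 3 on caloric restriction (-0.78, 0.0433) or WT replicate 4 on control diet (-0.72, 0.0419). DESeq2 called *Cyp27a1* at ZT0, ZT4, ZT12 and ZT16 and *Nr0b2* at ZT16, and 1 edgeR fit of all libraries of the time series called 2 pairs, *Cyp27a1* at ZT12 and ZT16. That fit called 3.01% of all genes tested at ZT12 and 0.486% at ZT16.

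A mean over the 6 time points, a contrast chosen after the results per time point were seen, drew on all libraries of a diet in 1 edgeR fit. On caloric restriction 6 of the 10 members were lower in GR LKO livers, where 32.9% of the 13041 genes tested were called. They were *Cyp27a1* (-0.63, SE 0.037, adjusted p = 3.32e-13), *Cyp7b1* (-0.63, SE 0.12, adjusted p = 0.000234), *Cyp7a1* (-0.55, SE 0.21, adjusted p = 0.0471), *Abcb11* (-0.31, SE 0.058, adjusted p = 0.000112), *Slc10a1* (-0.23, SE 0.056, adjusted p = 0.00232) and *Baat* (-0.20, SE 0.040, adjusted p = 0.000249). The members' median was -0.25 and that of all genes 0.0010, with 2039 genes higher and 2258 lower. *Cyp8b1* (0.42, SE 0.19, adjusted p = 0.0882) was not called, nor were *Nr0b2*, *Nr1h4* and *Slc51b*. Without WT replicate 3 at ZT12, the liver with pancreas markers, the number called was 6 as well, and it was also 6 without WT replicate 2 at ZT8, the liver with Kupffer and cholangiocyte markers. Without GR LKO replicate 1 at ZT20, the liver with stellate cell markers, it was 5, *Cyp7a1* (-0.53, adjusted p = 0.0702) being lost, as it was without GR LKO replicate 2 at ZT0 (-0.50, 0.0768) or WT replicate 1 at ZT4 (-0.48, 0.0880), the livers with Kupffer and myeloid markers.

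On control diet the mean over time points was lower in GR LKO livers for 3 members, where 18.6% of the 12834 genes tested were called. These were *Cyp7b1* (-0.93, SE 0.11, adjusted p = 1.53e-07), *Cyp27a1* (-0.19, SE 0.043, adjusted p = 0.00127) and *Abcb11* (-0.19, SE 0.048, adjusted p = 0.00416). The median was -0.11 for the members and -0.0035 for all genes. Without GR LKO replicate 1 at ZT20, the liver with cholangiocyte markers, 5 were called, with *Cyp8b1* (0.42, adjusted p = 0.0134) and *Nr0b2* (-0.52, adjusted p = 0.0258) added. Without WT replicate 2 at ZT16, the liver with pancreas markers, the same 3 were called as with it, and without GR LKO replicate 3 at ZT12, the liver with small intestine markers, *Slc10a1* (-0.16, adjusted p = 0.0466) was called too.

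Some of these means rested on single replicate numbers, left out at every hour. On caloric restriction *Cyp7a1* was no longer called without replicate 2 (-0.40, adjusted p = 0.319) or 3 (-0.45, 0.236), nor with no filter on low counts (0.0601), and *Slc10a1* was not without replicate 3 (0.0591), while *Cyp8b1* was then called (0.68, 0.0327). On control diet *Abcb11* was not called without replicate 1 (0.0591) or 2 (0.0779), and *Cyp8b1* was called without replicate 1 (0.50, 0.0146). Of the other pathway genes 16 of 36 were called on caloric restriction (8 higher and 8 lower) and 10 of 36 on control diet (4 higher and 6 lower). Over all genes tested the shares were 32.9% and 18.6% with all livers. Shares with livers left out are not given here, so the numbers of members called without them cannot be set against all genes.

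Daily rhythms were tested in each combination of diet and genotype with JTK_CYCLE at a period of 24 h, and a gene was called rhythmic at an adjusted p under 0.05 and a cosine amplitude over 0.1 on the variance-stabilized (VST) scale. With all livers, *Abcb11* was rhythmic in all 4 combinations, with a peak at ZT0 or ZT4, around the start of the light hours. *Cyp8b1* was rhythmic on caloric restriction in both genotypes and in neither on control diet, and *Cyp7b1* the other way.

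In WT livers on caloric restriction 4 of 10 members were called rhythmic, where 27.6% of genes were. They were *Cyp8b1* (amplitude 1.77, peak at ZT20, adjusted p = 0.00624), *Slc10a1* (0.191, ZT12, 0.0105), *Abcb11* (0.578, ZT0, 0.00808) and *Baat* (0.226, ZT20, 0.00273). In GR LKO livers on that diet the number was 4 (25.4% of genes), with *Cyp8b1* (0.839, ZT20, 0.0238), *Nr1h4* (0.426, ZT12, 0.00119), *Abcb11* (0.565, ZT0, 0.00403) and *Baat* (0.238, ZT20, 0.030). *Cyp7a1*, with amplitudes of 0.830 in WT and 1.05 in GR LKO livers and a peak at ZT16 in both, had an adjusted p of 0.0978 and 0.0703.

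In WT livers on control diet 3 members were called rhythmic (31.0% of genes): *Cyp7b1* (amplitude 0.560, peak at ZT16, adjusted p = 0.0136), *Abcb11* (0.759, ZT4, 0.000114) and *Baat* (0.220, ZT20, 0.00452). In GR LKO livers on control diet the number was 4 (27.4% of genes), with *Cyp7b1* (0.420, ZT12, 0.0302), *Nr0b2* (0.596, ZT4, 0.0168), *Nr1h4* (0.30, ZT12, 0.00699) and *Abcb11* (0.654, ZT4, 0.000216). The median amplitude of the members was 0.222 and 0.445 in WT and GR LKO livers of restricted mice, against 0.297 and 0.218 on control diet, beside 0.150, 0.143, 0.103 and 0.105 for all genes. Of the other pathway genes 17 of 39 and 21 of 39 were rhythmic in WT and GR LKO livers of restricted mice, against 25 of 38 and 19 of 38 on control diet.

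These calls depended on the livers used. Without replicate 1, 2 or 3 at every hour, 1, 0 and 1 members were rhythmic in WT livers and 1, 1 and 2 in GR LKO livers on caloric restriction. Those called there were *Baat* in WT livers without replicate 1 or 3, *Nr1h4* in GR LKO livers without replicate 1 or 2, and *Nr0b2* and *Abcb11* in GR LKO livers without replicate 3. So *Cyp8b1* was called in 0 of these 6 settings and *Abcb11* in 1. The share of all genes called fell too with 2 livers per hour, from 27.6% to 10.1%, 6.01% and 5.92% in WT and from 25.4% to 5.77%, 5.21% and 9.10% in GR LKO livers. On control diet the numbers without replicate 1, 2, 3 or 4 were 3, 1, 2 and 3 in WT and 2, 2, 2 and 4 in GR LKO livers, and *Abcb11* was called in each of the 8 settings on control diet. *Cyp7b1* was called in 1 of these 8, in WT livers without replicate 4 (adjusted p = 0.0301), and lost in the other 7 (0.0580 to 0.179). All genes went from 31.0% to 21.8%, 19.9%, 19.0% and 24.8% in WT and from 27.4% to 15.2%, 11.03%, 15.3% and 24.8% in GR LKO livers. Without WT replicate 3 at ZT12 on caloric restriction, the liver with pancreas markers, 5 were called in WT livers, *Cyp7a1* (adjusted p = 0.0396) among them. Without GR LKO replicate 1 at ZT20 on control diet, the liver with cholangiocyte markers, 5 were called in GR LKO livers, *Baat* (adjusted p = 0.00444) among them. Without GR LKO replicate 1 at ZT20 on caloric restriction, the liver with stellate cell markers, 3 were called in GR LKO livers, *Cyp8b1* (adjusted p = 0.0529) being lost, and the same call was lost without GR LKO replicate 2 at ZT0 (0.0539). The calls in GR LKO livers on control diet stayed the same without replicate 3 at ZT12, the liver with small intestine markers. Those in WT livers stayed the same on caloric restriction without replicate 1 at ZT4 and without replicate 2 at ZT8, the livers with Kupffer markers, and on control diet without replicate 2 at ZT16, the other liver with pancreas markers.

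A rhythm called in 1 group and not in another is no test of their difference, which limma tested on the sine and cosine terms of each group. Between genotypes on caloric restriction 0 of 10 members were called (0.652% of genes tested), with 2 at an unadjusted p under 0.05 (*Cyp8b1* and *Nr1h4*) and 0 by edgeR. On control diet 0 were called (0.366%), with 0 at an unadjusted p under 0.05 and 0 by edgeR. The largest difference between genotypes was that of *Cyp8b1* on caloric restriction, with a size of 0.928 on the VST scale (adjusted p = 0.264, limma).

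Between the diets in WT livers 3 of 10 members differed in rhythm (26.6% of genes tested): *Cyp8b1* (size of the difference 1.5 on the VST scale, adjusted p = 0.000397), *Abcb11* (0.416, adjusted p = 0.00517) and *Cyp7b1* (0.643, adjusted p = 0.0309). The fit holds a term for each diet, which takes up a shift of level between the library sets but not a change in the shape of a rhythm. The call on *Cyp7b1* was lost without replicate 1 (adjusted p = 0.0621), 2 (0.0536) or 3 (0.388) and by edgeR (0.0597), and that on *Abcb11* without replicate 2 (0.0516). With the replicate number as a block the call on *Cyp7b1* was lost too, and *Cyp8b1* and *Abcb11* were called. *Cyp8b1* was called in each of these settings, and the 3 calls were kept without any 1 of the 4 WT libraries set apart by their markers. Of the 36 other pathway genes tested, 15 differed in rhythm between the diets in WT livers, and 1 and 0 between genotypes on caloric restriction and control diet.

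The genes whose group means over the 24 groups of the time series were most like those of *Cyp7a1*, after the mean of each diet was subtracted, were *Slc26a1* (Pearson correlation 0.885), *Slc25a44* (0.793), *Bbs10* (0.767), *Xkr8* (0.758) and *Gpatch11* (0.745), out of 8827 genes compared. For *Slc51b* they were *Kdm1b* (0.819), *Slc6a13* (0.781), *Ccdc43* (0.772), *Gimap9* (0.765) and *Mrpl50* (0.760). These are descriptions over 24 groups that share diets, genotypes and hours, with no test.

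Some list genes were not detected or nearly so. *Fgf15*, the intestinal hormone that feeds back on *Cyp7a1*, was at 0 in all 90 libraries, *Gpbar1*, a bile acid receptor, at 0 in 79, and *Slc51a*, the partner subunit of *Slc51b*, at 0 in 78. *Slc51b* lies across from *Rasl12* on the other strand, whose level was 0 to 0.455 CPM (median 0.0637), and the methods name a stranded kit and a further kit but not whether the counting used strand, so that reads of their overlap may not be told apart. *Abcb11* overlaps *Gm13614*, a pseudogene on the other strand that was at 0 in the time series.

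Promoter sequence before the start was at hand from RefSeq (build GRCm38.p6) for 7 of the 10 members, and *Cyp7a1*, *Cyp7b1* and *Baat* had no entry. The 250 bases before the start are shown for *Cyp8b1*, *Nr0b2* and *Abcb11*, an enzyme, a regulator and a transporter that each had a call on genotype or rhythm, 5′ to 3′ on the strand of the gene. They span chr9:121916306-121916555 on the minus strand, chr4:133553126-133553375 on the plus strand and chr2:69342617-69342866 on the minus strand. Capitals mark letters that match a motif searched on both strands.
Cyp8b1: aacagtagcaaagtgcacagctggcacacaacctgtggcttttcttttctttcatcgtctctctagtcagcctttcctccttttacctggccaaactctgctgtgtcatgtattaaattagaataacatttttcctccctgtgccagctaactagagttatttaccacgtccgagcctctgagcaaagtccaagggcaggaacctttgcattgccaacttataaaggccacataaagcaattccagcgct
Nr0b2: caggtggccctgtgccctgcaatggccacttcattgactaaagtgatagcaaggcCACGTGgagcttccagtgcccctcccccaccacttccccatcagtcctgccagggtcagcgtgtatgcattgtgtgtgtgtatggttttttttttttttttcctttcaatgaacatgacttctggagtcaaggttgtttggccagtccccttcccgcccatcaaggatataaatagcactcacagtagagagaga
Abcb11: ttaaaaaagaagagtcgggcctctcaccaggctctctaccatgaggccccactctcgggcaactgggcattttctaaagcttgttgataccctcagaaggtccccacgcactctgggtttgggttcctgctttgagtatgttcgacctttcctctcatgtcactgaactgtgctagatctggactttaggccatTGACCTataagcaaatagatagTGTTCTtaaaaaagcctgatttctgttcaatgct

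The motifs searched were the nuclear receptor half-site AGGTCA, held by 14.02% of all 32851 windows of 250 bases, its inverted repeat AGGTCANTGACCT (0.00609%), the glucocorticoid receptor half-site TGTTCT (16.1%), the E-box CACGTG (6.02%), the D-box TTATGTAA (0.819%) and the liver receptor homolog site TCAAGGTCA (0.387%), which contains AGGTCA. *Nr0b2* held the E-box from base -195 to -190 relative to the start. *Abcb11* held AGGTCA on the other strand from -56 to -51 and TGTTCT from -34 to -29. *Slc51b* held AGGTCA from -203 to -198, relative to a RefSeq start 182 bases inside the annotated gene. The *Nr1h4* window lies within the gene, 26927 bases after its annotated start, so that its match to AGGTCA stands before an internal start, and the windows of *Cyp8b1*, *Cyp27a1* and *Slc10a1* held none of the 6 motifs. A match is a description of letters, not a site.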

How the data were processed

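Bulk RNA-seq of whole liver was measured in 90 libraries of single mice. The authors quantified reads with Salmon, summed them to genes with tximport and deposited estimated counts (expected counts) per gene, which are not normalized and were rounded here for the tests. Of 27654 gene IDs 27244 had a symbol. A further deposited table of VST values (6 columns, corticosterone experiment) was not used. In R 4.3.3, each comparison of 2 groups and each interaction was fitted over all genes with edgeR 4.0.16 (quasi-likelihood F test, TMM, filterByExpr at a minimum count of 10), and a gene was called at p under 0.05 after Benjamini-Hochberg adjustment. Rhythms were tested with JTK_CYCLE on VST values (DESeq2 1.42) with Bonferroni correction over 6 phase offsets, and rhythm differences with limma 3.58.1. Levels in CPM of the time series share 1 TMM scaling. In the time series diet coincides with the library set, so diets were compared there as an interaction or, for rhythms, with a term for each diet. Standard errors (SE) derive from the F statistic. No pair of libraries within a group was identical (102 pairs, lowest chi-square per degree of freedom 10.9). The fits were tested on simulated data.

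Named were the 10 members in every comparison, *Nr3c1* for genotype, *Fkbp5*, *Per1* and *Tsc22d3* for corticosterone, up to 3 called genes of the 40-gene pathway list per comparison with the largest change at 5 CPM or more, and the 5 genes most like *Cyp7a1* and *Slc51b*. Lists of 7 cell types served as markers. Members and lists were chosen with earlier results of these data known. The mean over time points and the omission of 8 libraries with high markers of other cells were chosen after seeing the data. Other settings were DESeq2, RLE size factors, no filter, a block of replicate number, 1 fit of all libraries and each library left out.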

Additional observations from a re-analysis of the deposited data

Results flagged for a closer look

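In groups of 4 livers, a liver was singled out when it lay far from the other 3 relative to the range of its group, which chance brings about in about 1 in 20 groups; 3 of 60 combinations of member and group met this. *Cyp7b1* was at 247 CPM in WT replicate 3 at ZT20 on control diet, and at 522 to 575 CPM in the other WT livers. *Nr0b2* was at 42.4 CPM in WT replicate 1 at ZT12 on control diet, and at 11.2 to 15.6 CPM in the others. *Slc51b* was at 0.408 CPM in WT replicate 3 at ZT8 on control diet, and at 0.134 to 0.142 CPM in the others.

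Differences between groups were singled out where a test of the difference passed or where all livers moved in opposite directions. The rhythm of WT livers differed between the diets for *Cyp8b1* (1.5 on the VST scale), *Cyp7b1* (0.643) and *Abcb11* (0.416). As given above, the calls on *Cyp7b1* and *Abcb11* were lost in some settings. On caloric restriction *Nr1h4* was higher in every GR LKO liver than in every WT liver at ZT12 (log2 fold change 0.34) and lower in every one at ZT4 (-0.15) and ZT16 (-0.24). The difference between these time points was not tested directly. The test of a rhythm difference between genotypes on that diet did not call *Nr1h4* (adjusted p = 0.396, limma).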

How the results depend on the processing

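Of 1637 log2 fold changes of members recomputed with a library or replicate number left out, 1591 kept their side of the threshold, 35 lost a call and 11 gained one. Over the other settings these numbers were 923, 12 and 25 of 960, and no called value changed direction. For the mean over time points they were 137, 8 and 5 of 150 with libraries left out and 58, 1 and 1 of 60 otherwise, and for rhythms and their differences 407, 37 and 6 of 450 and 191, 2 and 13 of 206. Most of the 1637 values were not called with all livers, and only a called value can lose its call. With all livers edgeR called 5 members for diet and 0 for corticosterone. It called 9 pairs on caloric restriction, 1 on control diet and 0 for the interaction, and the 35 losses fell on refits of these calls. The cause of the changes was not tested.

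The diet effect from WT libraries of the time series called 3 members in place of 5. DESeq2 called 15 pairs of member and time point on caloric restriction in place of 9, 7 on control diet in place of 1, and 5 for the interaction in place of 0. One fit of all libraries called 8 pairs on caloric restriction, 4 on control diet and 2 for the interaction; on caloric restriction it lost *Cyp8b1* and *Nr0b2* at ZT12 and *Cyp7a1* at ZT16 and gained *Cyp27a1* at ZT0 and ZT20. With the replicate number as a block, 4 pairs were called under caloric restriction against 0 on control diet. The calls lost were *Cyp27a1* at ZT4 and ZT8, *Nr1h4* and *Slc10a1* at ZT12, *Cyp7a1* at ZT16 and *Nr0b2* on control diet. The share of all genes called was also lower with the block at each hour. It was 0.0741%, 0.108%, 1.25%, 7.56%, 2.41% and 0.629% on caloric restriction from ZT0 to ZT20. On control diet it was 0.0766%, 0.00846%, 0.311%, 0.884%, 0.273% and 0.0252%. The pairing was checked by the correlation of livers with the same number, which was over 0.1 for every pair in 0 of 14 comparisons. An edgeR test of sine and cosine called 7 rhythmic members in WT and 8 in GR LKO livers of restricted mice, where JTK_CYCLE on the genes past the filter called 7 in GR LKO. Of all genes tested, that edgeR test called 53.4% in WT and 49.5% in GR LKO livers. JTK_CYCLE on the genes past the filter called 42.6% in GR LKO livers. The main test called 27.6% and 25.4% of genes in WT and GR LKO livers.

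With replicate numbers or single libraries left out in turn, the lowest and highest numbers called were 0 and 2 for corticosterone, 4 and 12 pairs under caloric restriction, 0 and 2 pairs on control diet and 0 and 1 for the interaction. For rhythms they were 0 and 5 in WT and 1 and 3 in GR LKO livers of restricted mice, 1 and 3 in WT and 2 and 5 in GR LKO livers on control diet, and 1 and 3 for the difference between diets. For the mean over time points on control diet they were 2 and 5. *Slc51b* had few counts and was not tested in 6 comparisons. Each library of the time series stands for 1 liver at 1 hour, so no liver was followed over time.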
